A study of Oryctolagus cuniculus with 4 samples.

Results

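Enzymes that metabolise foreign compounds and aldehydes were followed through the cells of the rabbit bladder. The members were all features whose symbol, ignoring case, begins with CYP, UGT, FMO, ADH or AKR and a digit, with ALDH, SULT or EPHX, with GST and one of the letters A, K, M, O, P, T or Z, or is NQO1 or NQO2, with CYP4B1 left out. This rule took no expression value into account. It found 64 of 18475 features, of which 9771 carry a symbol. There were 23 cytochrome P450 genes (CYP), 11 aldehyde dehydrogenases (ALDH), 7 glutathione S-transferases (GST), 5 aldo-keto reductases (AKR), 5 flavin monooxygenases (FMO), 4 sulfotransferases (SULT), 3 alcohol dehydrogenases (ADH), 3 UDP-glycosyltransferases (UGT), 2 epoxide hydrolases (EPHX) and 1 NAD(P)H quinone dehydrogenase (NQO). The symbols GSTP1, ALDH1A3, CYP1A1, ADH7, NQO2 and any beginning with AKR1C or UGT1A matched no row of the feature list and were not analysed here.

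Foreign compounds and reactive endogenous molecules are usually cleared in steps. P450s, flavin monooxygenases, dehydrogenases and reductases oxidise or reduce a compound, and transferases then attach glutathione, a sugar or sulfate so that it can be excreted. The bladder lining, the urothelium, is exposed to urine, which carries such compounds and their products. Many of the same enzymes also act on hormones, retinoids, bile acids and sterols.

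The data were 4 single-cell RNA libraries, 1 per rabbit. Injury_1 and Injury_2 came from adult New Zealand rabbits whose bladder mucosa had been focally resected and was collected at day 10, and Normal_1 and Normal_2 from rabbits with normal bladder. The labels name the tissue urothelium, yet epithelial-like cells were only 9.31%, 6.40%, 10.2% and 2.84% of the cells kept in Injury_1, Injury_2, Normal_1 and Normal_2, and fibroblast-like and endothelial-like cells made up most of the rest. With 2 rabbits in each group, an exact permutation test over samples cannot give a two-sided p below 0.333, so tests rest on the edgeR fit across all genes.

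After filtering, 21945 cells remained, from 4308 in Normal_1 to 6081 in Injury_1. Normal_1 was the shallowest library, with 28745017 unique molecular identifiers (UMIs, each taken as 1 captured transcript) against 46395632 to 47881609 in the others, and a median of 4813.5 UMIs per cell against 6755 to 7186. It also lost the most barcodes to the mitochondrial limit, 1388 against 593 to 856. Pairs of libraries shared 8 to 13 cell barcodes. Clustering gave 10 classes that could be named from markers. A further 860 cells in 5 clusters stayed unnamed. Cell types were rebuilt here, so shares and levels may differ from those under the study's own annotation.

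Of the 64 members, 59 had at least 1 UMI. CYP19A1, CYP26C1, CYP2C30, CYP2C4 and SULT1C3 had none in any library, and 20 members had fewer than 100 UMIs over all cells. Levels are given as UMIs per 1000000 UMIs of a class in a library (CPM). UMIs count transcript ends, so a level is not divided by gene length. At 20 CPM or more in some class, averaged over the libraries with at least 10 of its cells, there were 32 members. The highest class was epithelial-like for 14 of these 32, neurone or glia-like for 7, fibroblast-like for 4, T cell-like for 2, and endothelial-like, macrophage-like, mast cell-like, neutrophil-like or B cell-like for 1 each. A mean at least 5 times that of the next class was seen for 9 members, among them GSTA5, FMO1, UGT2B16 and CYP17A1 in epithelial-like cells, FMO2 in fibroblast-like cells, UGT8 and CYP39A1 in neurone or glia-like cells, and CYP2R1 in neutrophil-like cells. These levels are a description without a test, since cells were sorted into classes by the same transcriptomes. Of the members, 22 were among the most variable genes and were left out of the genes used for clustering.

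**Figure D1:**
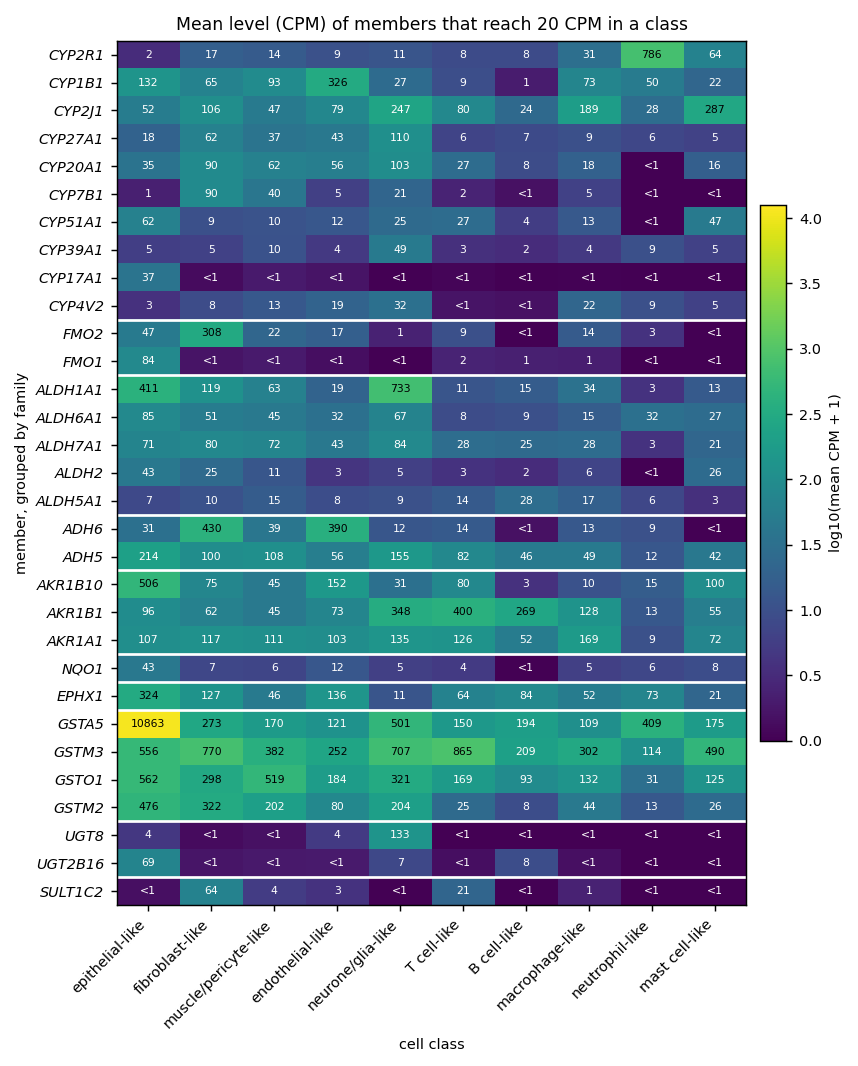
Mean CPM, on a log colour scale, of members that reached 20 CPM in some class (rows) in each of the 10 named cell classes (columns). GSTA5 in epithelial-like cells, at 10863 CPM, is the brightest field.

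Together the members took 1.11% to 1.71% of the UMIs of epithelial-like cells in the 4 libraries. On average they took 0.376% of the UMIs of fibroblast-like cells and 0.228% of those of endothelial-like cells. GSTA5 alone held 62.4% to 75.7% of the member UMIs in epithelial-like cells. Without GSTA5 the epithelial-like total was 4078, 4074, 4243 and 4182 CPM in Injury_1, Injury_2, Normal_1 and Normal_2, a range far narrower than that of GSTA5 itself.

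Among the P450s, CYP1B1, which oxidises estradiol and polycyclic aromatic hydrocarbons, was highest in endothelial-like cells, at 266, 304, 370 and 363 CPM in Injury_1, Injury_2, Normal_1 and Normal_2 (326 ± 49.3, mean ± SD, n = 4). Epithelial-like cells followed at a mean of 132 CPM and smooth muscle and pericyte-like cells at 93.2 CPM. CYP17A1, the steroid hydroxylase and lyase of androgen synthesis, was at 22.5, 38.1, 44.4 and 42.8 CPM in epithelial-like cells and at or below 1.0 CPM on average in every other class. CYP2J1, of an arachidonic acid epoxygenase family, was highest in mast cell-like (287 CPM), neurone or glia-like (247 CPM) and macrophage-like cells (189 CPM).

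Several P450s of sterol and vitamin metabolism had other leading classes. CYP2R1, a vitamin D hydroxylase, averaged 786 CPM in neutrophil-like cells of 3 libraries and 64.3 CPM in the next class, mast cell-like cells. The neutrophil-like cells were shallow, with a median of 699 UMIs per cell. CYP7B1, an oxysterol hydroxylase, was highest in fibroblast-like cells at 89.9 CPM. CYP39A1, which also acts on oxysterols, averaged 48.8 CPM in neurone or glia-like cells and 9.7 CPM in the next class. CYP51A1, the lanosterol demethylase of cholesterol synthesis, was highest in epithelial-like cells at 61.9 CPM. The retinoic acid hydroxylases CYP26A1 and CYP26B1 did not reach 20 CPM in any class.

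The flavin monooxygenases oxidise nitrogen and sulfur atoms of drugs and amines, and members of the family led in both epithelium and stroma. FMO1 was at 66.6, 81.0, 126 and 60.5 CPM in epithelial-like cells of Injury_1, Injury_2, Normal_1 and Normal_2, and at 1.6 CPM or less on average in all other classes. FMO2 was a fibroblast-like transcript, at 140, 226, 380 and 484 CPM, with epithelial-like cells next at 47.2 CPM.

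**Figure D2:**
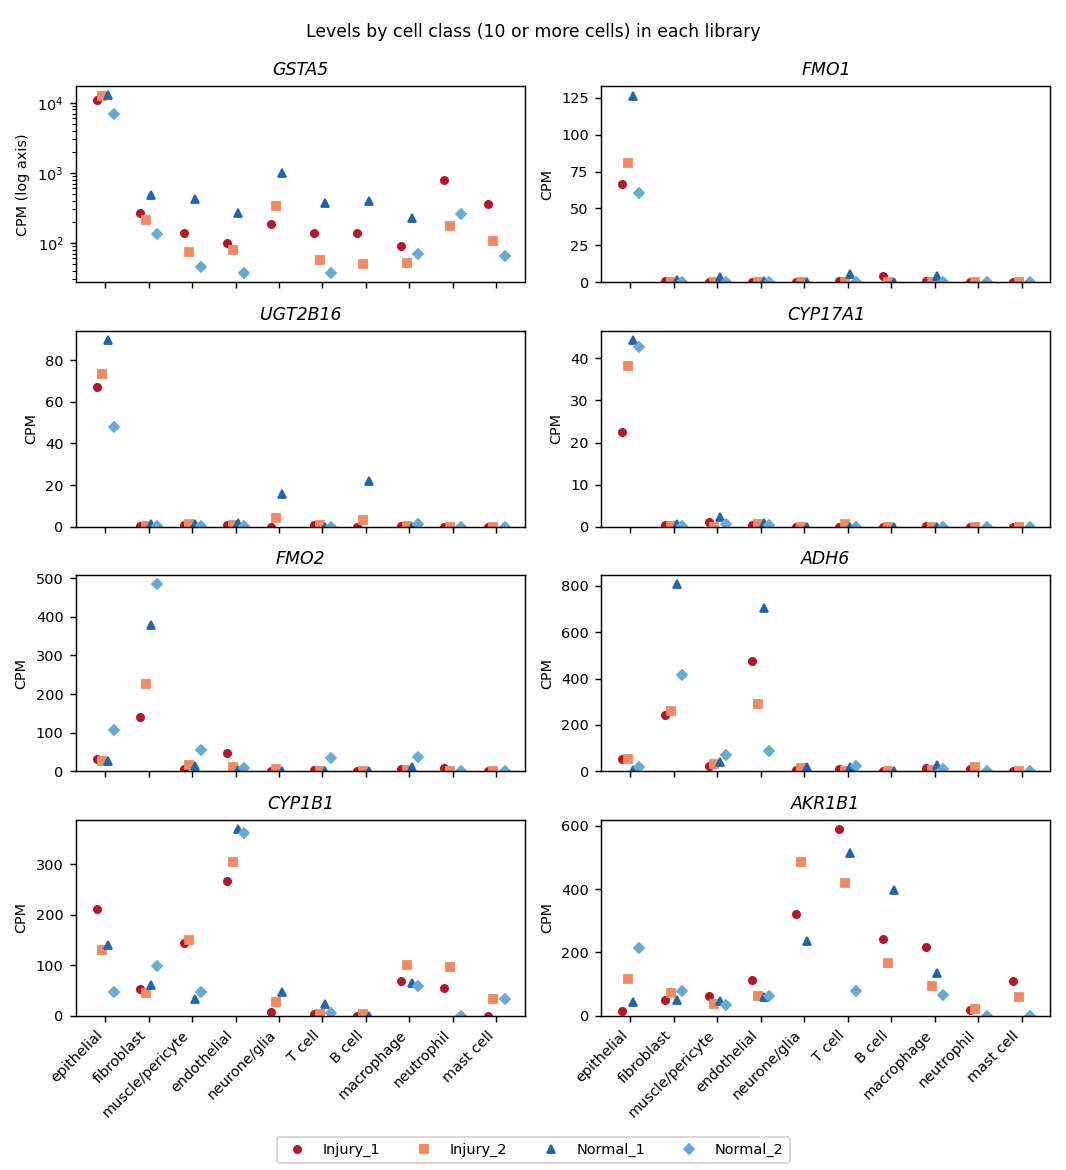
CPM of 8 members by cell class, 1 point per library (Injury_1, Injury_2, Normal_1, Normal_2), with GSTA5 on a log axis and the others on linear axes. FMO1, UGT2B16 and CYP17A1 stand in epithelial-like cells, FMO2 in fibroblast-like cells, ADH6 in fibroblast-like and endothelial-like cells, and AKR1B1 spreads widely among T cell-like libraries.

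Aldehyde dehydrogenases oxidise aldehydes to acids, ALDH1A1 and ALDH1A2 doing so for retinal. ALDH1A1 was at 265, 335, 516 and 529 CPM in epithelial-like cells of Injury_1, Injury_2, Normal_1 and Normal_2. Its mean in neurone or glia-like cells was higher, 733 ± 737 CPM (SD, n = 3), but with a spread as large as the mean, so the order of these classes is not resolved. ALDH1A2 had its highest class mean, only 14.6 CPM, in fibroblast-like cells. Single clusters held more, with a mean of 25.2 CPM in macrophage-like cluster 14 and the fibroblast-like values given below. ALDH2, the mitochondrial enzyme of acetaldehyde oxidation, was highest in epithelial-like cells at 43.0 CPM, with mast cell-like cells next at 26.4 CPM. ALDH6A1 and ALDH7A1 were spread over most classes, up to 85.2 and 83.7 CPM.

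The alcohol dehydrogenase ADH6 was stromal and vascular. Fibroblast-like cells held 242, 258, 806 and 415 CPM in Injury_1, Injury_2, Normal_1 and Normal_2, and endothelial-like cells 476, 291, 706 and 87.3 CPM. These ranges overlap, so neither class was higher beyond the spread between rabbits. ADH5, the glutathione-dependent formaldehyde dehydrogenase, was present in every class, highest in epithelial-like cells at 214 CPM.

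Aldo-keto reductases reduce aldehydes and ketones to alcohols. AKR1B1, the aldose reductase, was highest in T cell-like cells at 590, 418, 514 and 76.7 CPM in Injury_1, Injury_2, Normal_1 and Normal_2, with Normal_2 far below the others. AKR1B10, which reduces retinal and lipid aldehydes, was at 579, 743, 123 and 578 CPM in epithelial-like cells, and here Normal_1 was the low library. AKR1B1 and AKR1B10 are close paralogs, so their reads may have been split or shared. AKR1A1 lay between 72.4 and 169 CPM in 8 of the 10 classes and was highest in macrophage-like cells.

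NQO1, which reduces quinones, was low everywhere. It was highest in epithelial-like cells, at 19.0, 41.3, 30.3 and 80.9 CPM. EPHX1, the microsomal epoxide hydrolase, was at 229, 330, 333 and 403 CPM in epithelial-like cells, 136 CPM in endothelial-like and 127 CPM in fibroblast-like cells on average.

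Glutathione S-transferases couple glutathione to electrophiles. GSTA5, an alpha-class transferase, was at 11028, 12667, 12822 and 6935 CPM in epithelial-like cells of Injury_1, Injury_2, Normal_1 and Normal_2 (10863 ± 2742, mean ± SD, n = 4), so that it was about 1 in every 100 UMIs of these cells. All 4 values lay above every value in the other classes. The mean was 21.7-fold that of the next class, neurone or glia-like cells, at 501 CPM. No other alpha-class member was abundant, GSTA4 reaching 17.4 CPM. Alpha-class genes of the rabbit are near-identical copies in part, so the count may hold reads of genes other than GSTA5.

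GSTA5 was also counted at a low level in all other classes, and Normal_1 was highest in each of the 5 other classes with at least 50 cells per library. With cells thinned to 1000 UMIs, 96.8% of epithelial-like cells but 8.97% to 18.3% of the cells in these 5 classes held a GSTA5 UMI. Unthinned, the share was 99.3% of epithelial-like cells, with a median of 13733 UMIs, and 39.8% of T cell-like cells, with a median of 3384 UMIs. The thinned share was 18.3% in fibroblast-like and 15.1% in T cell-like cells. It was lower in endothelial-like, macrophage-like and smooth muscle and pericyte-like cells. The ratio of GSTA5 to KRT15, a basal epithelial keratin, was 1.74, 2.89, 7.65 and 4.19 in endothelial-like cells of Injury_1, Injury_2, Normal_1 and Normal_2, and 2.31, 2.87, 6.55 and 2.56 in epithelial-like cells. In fibroblast-like cells it was 6.26, 8.75, 10.6 and 9.60, above the epithelial-like value in each library. The source of the GSTA5 UMIs outside epithelial-like cells was not tested.

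The other transferases of glutathione were shared among cell types. GSTM3, of the mu class, was at 865 ± 146 CPM in T cell-like and 770 ± 91.0 CPM in fibroblast-like cells, and these did not separate beyond their spread. GSTM2 was highest in epithelial-like cells at 476 CPM, and GSTO1, of the omega class, was near equal in epithelial-like (562 CPM) and smooth muscle and pericyte-like cells (519 CPM). GSTM2 and GSTM3 also belong to a family of near-identical copies.

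UGT2B16, which attaches glucuronic acid, was at 67.04, 73.2, 89.7 and 47.7 CPM in epithelial-like cells of Injury_1, Injury_2, Normal_1 and Normal_2 and at most 8.4 CPM on average elsewhere. UGT8, which builds the galactolipids of myelin, averaged 133 CPM in neurone or glia-like cells and 4.0 CPM in the next class. SULT1C2, a sulfotransferase, was highest in fibroblast-like cells at 64.2 CPM, with T cell-like cells at 20.8 CPM. The T cell-like mean rested on Normal_2. All sulfotransferases there summed to 6.40, 0.0, 0.0 and 76.7 CPM in Injury_1, Injury_2, Normal_1 and Normal_2. Fibroblast markers in T cell-like cells also had their highest sum in Normal_2, at 2555 CPM, and their part was not tested. In epithelial-like cells SULT1C2 was at 0.5 CPM, and no sulfotransferase had enough UMIs there for the test.

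Epithelial-like cells were not uniform. Clustering them alone gave 10 sub-clusters, of which 5, numbered 0 to 4, were led by epithelial genes and not by low depth, genes of another class or proliferation genes. Sub-cluster 4 (189 cells) was led by KRT5, PTHLH and ITGA2 and held 467 CPM of KRT5, the keratin of basal urothelium, against 18.2 to 119 CPM in sub-clusters 0 to 3. Sub-cluster 3 (216 cells) was led by UPK1B and sub-cluster 1 (247 cells) by CRISP3, with UPK3B also among its leading genes. UPK1B and UPK3B are uroplakin genes of the urothelial surface. Other basal genes were split between sub-clusters 3 and 4. TP63 (37.7 and 24.3 CPM) and KRT15 (4475 and 3654 CPM) were higher in sub-cluster 3. ITGA6 (99.9 and 288 CPM) and LAMB3 (3.43 and 306 CPM) were higher in sub-cluster 4. Sub-cluster 0 (292 cells) was led by F3 and LAMB3, and sub-cluster 2 (243 cells) by LMO7 and NR1H4.

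GSTA5 was lowest in the KRT5-rich sub-cluster 4, at 6499, 4147 and 2708 CPM in Injury_1, Injury_2 and Normal_1, where Normal_2 had too few cells to give a value. In sub-cluster 1 it was at 12745, 13491, 22427 and 22886 CPM in Injury_1, Injury_2, Normal_1 and Normal_2, and in sub-cluster 3 at 12657, 16064, 21711 and 19809 CPM. Sub-clusters 1 and 3 both lay above sub-cluster 4 in each of the 3 libraries that could be compared. Sub-cluster 0 went the other way between groups, at 12770, 14954, 7053 and 2792 CPM.

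FMO1 was also lowest in sub-cluster 4, at 36.8, 42.3 and 51.7 CPM, and its highest mean was in sub-cluster 3, at 90.5, 97.2, 259 and 140 CPM. AKR1B10 differed, since its highest mean, 695 CPM, was in sub-cluster 4, with 1 library, Injury_2, at 1308 CPM. CYP1B1 was highest on average in sub-cluster 1, at 235 CPM, and lowest in sub-cluster 3, at 59.1 CPM. These are descriptions without tests, since the sub-clusters were formed from the same cells.

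**Figure D3:**
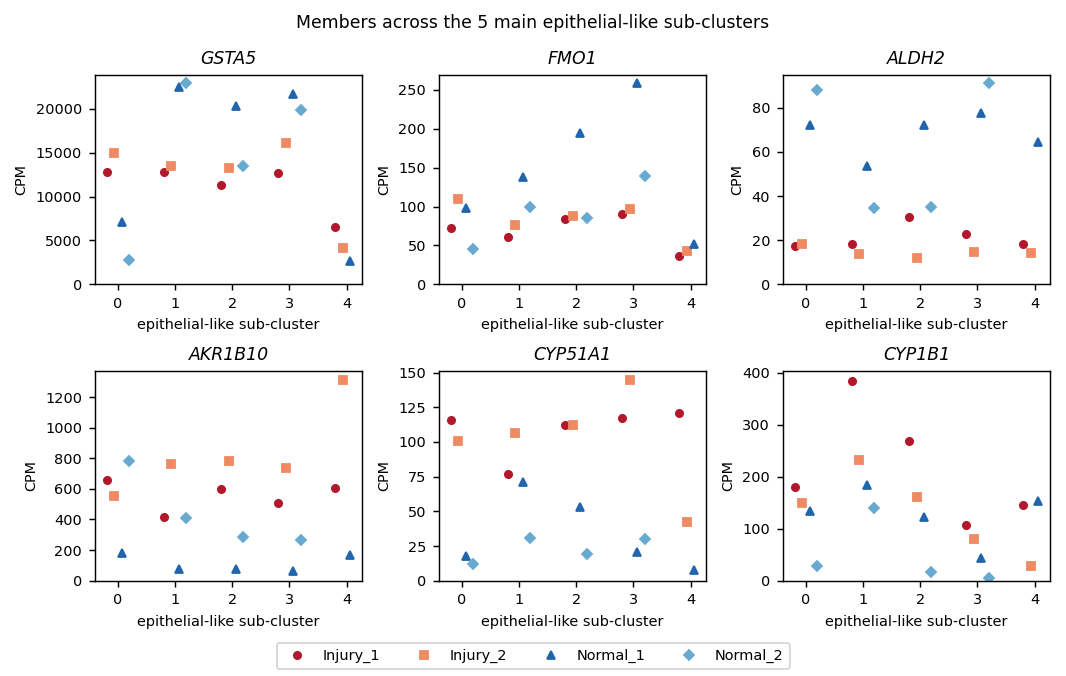
CPM of GSTA5, FMO1, ALDH2, AKR1B10, CYP51A1 and CYP1B1 in epithelial-like sub-clusters 0 to 4, 1 point per library with at least 10 cells. GSTA5 and FMO1 are lowest in sub-cluster 4, and ALDH2 is lower in both injured libraries than in both normal ones in sub-clusters 0 to 3.

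The comparison of injured with normal bladder asked whether these enzymes differ 10 days after resection. Each class with at least 50 cells in every library was tested on its summed counts, giving 6 classes. In bulk sums of this kind, fewer cells of a subtype and less RNA per cell cannot be told apart. The labels give separate rabbits but no batch, so any difference of handling between the groups cannot be told apart from injury.

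In epithelial-like cells 36 of the 64 members could be tested, and 2 were lower in injury while none was higher by edgeR. That is 5.56% of the members tested, against 1.66% of all 7046 genes called in either direction, 1.04% called lower and 0.624% called higher. ALDH2 was among the 2. Without a threshold, 11 members (30.6%) had both injured libraries below both normal ones, against 15.5% of all genes, and 8 (22.2%) had both above, against 39.4% of all genes. The median log2 fold change of the 36 members was -0.24, with 22 negative and 14 positive, beside -0.004 for all genes tested. In the other 5 classes the median of the members lay between -0.09 in macrophage-like and 0.17 in T cell-like cells.

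ALDH2 (ENSOCUG00000008325) was at 21.2 and 14.6 CPM in Injury_1 and Injury_2 and at 66.8 and 69.4 CPM in Normal_1 and Normal_2, with no overlap. It was 3.80-fold lower in injury, with a log2 fold change of -2.19 (SE 0.28, edgeR adjusted p = 0.0352). Both injured libraries were below both normal ones in each of sub-clusters 0 to 3, for example at 23.0, 14.7, 77.8 and 91.1 CPM in sub-cluster 3. This call was lost without Injury_1 (adjusted p = 0.0919) or without Injury_2 (adjusted p = 0.134), with log2 fold changes between -2.41 and -1.98.

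**Figure D4:**
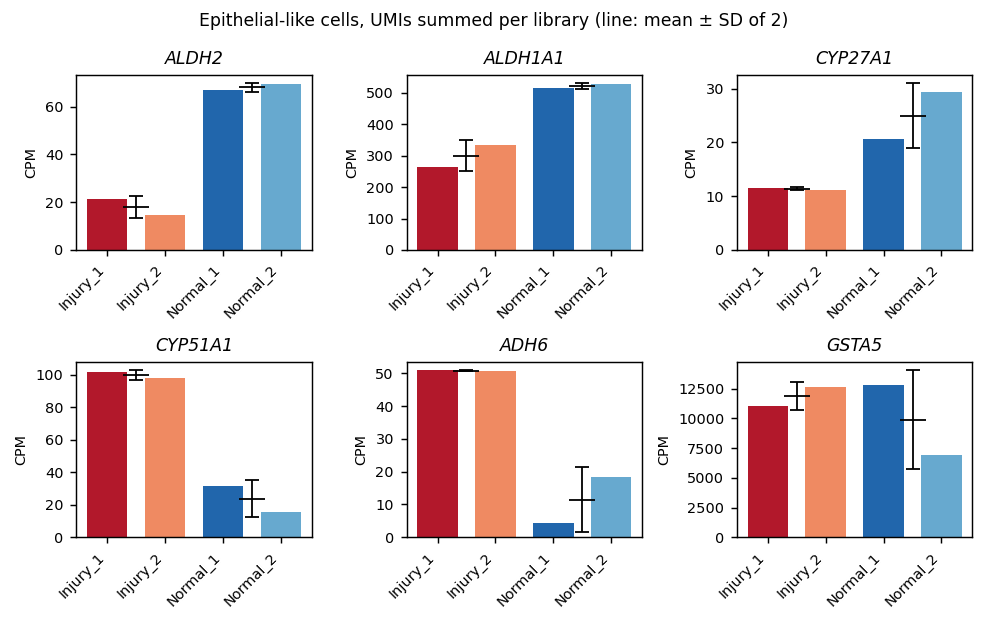
CPM in epithelial-like cells of ALDH2, ALDH1A1, CYP27A1, CYP51A1, ADH6 and GSTA5, with 1 bar per library and a line with error bars for the mean ± SD of each group of 2. ALDH2 passed the edgeR test as lower in injury, and the groups of ALDH1A1, CYP27A1, CYP51A1 and ADH6 do not overlap but did not pass it.

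Other members separated the groups without passing the test. CYP51A1 was at 102 and 97.9 CPM in the injured and 31.9 and 15.8 CPM in the normal libraries (log2 fold change 1.84, SE 0.30, edgeR adjusted p = 0.0504), and it passed under 9 of 14 alternatives. ADH6 was at 50.9 and 50.7 against 4.36 and 18.4 CPM (log2 fold change 1.89, SE 0.68, edgeR adjusted p = 0.201), and it passed under 5 of 14. ALDH1A1, given above, had a log2 fold change of -1.05 (SE 0.28, edgeR adjusted p = 0.120), and CYP27A1, a sterol hydroxylase, was at 11.6, 11.2, 20.7 and 29.3 CPM (log2 fold change -1.40, edgeR adjusted p = 0.109). A log2 fold change of 0.05 (SE 0.33, edgeR adjusted p = 0.952) was found for GSTA5, the most abundant member.

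Epithelial-like cells are 2 clusters, and the one led by SERPINB5 and KRT5, cluster 13, was also tested on its own. There ALDH2 had a log2 fold change of -2.54 (edgeR adjusted p = 0.0169), and CYP51A1 (2.68, adjusted p = 0.0112) and ADH6 (3.62, adjusted p = 0.0375) were higher in injury. The share of all genes called in cluster 13 is not given here, so these calls cannot be set against a background. In cluster 9, whose leading genes include SPP1, CRISP3 and GSTA5, ALDH2 (-1.66, adjusted p = 0.0992), CYP51A1 (1.17, adjusted p = 0.173) and ADH6 (0.28, SE 0.93, adjusted p = 0.938) did not pass by edgeR. GSTA5 had a log2 fold change of 1.17 in cluster 13 (edgeR unadjusted p = 0.0141, adjusted p = 0.107). In cluster 9 its value was -0.81 (edgeR unadjusted p = 0.0378, adjusted p = 0.345), of opposite sign, and neither passed. Cluster 13 held 188 of 566, 136 of 354, 191 of 441 and 109 of 171 epithelial-like cells in Injury_1, Injury_2, Normal_1 and Normal_2. The part of the cluster values and of these shares in the GSTA5 value near 0 for the class was not tested.

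RNA of other cell types was present in the epithelial-like sums and differed between libraries. The 6 measured of 7 fibroblast markers summed to 1570, 2373, 202 and 2649 CPM in Injury_1, Injury_2, Normal_1 and Normal_2, with DCN at 48.4 to 346 CPM. The 5 measured of 6 neutrophil markers summed to 218, 786, 33.0 and 69.1 CPM, and PTPRC, the leukocyte marker CD45, was at 4.1 CPM or less. Dissociation and stress genes summed to 10496 to 15390 CPM with overlapping groups. The part of these markers in the results above, ADH6 included, was not tested.

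In fibroblast-like cells 40 members were tested and none was called by edgeR, against 0.0% of all genes. At an unadjusted p under 0.05, 5 members (12.5%) and 935 genes (10.7%) passed, and DESeq2 called 0 members and 256 genes. Both injured libraries were below both normal ones for 14 members (35.0%, against 28.3% of all genes) and above for 5 (12.5%, against 15.5%). FMO2, with the values given above, had a log2 fold change of -1.12 (95% interval -1.79 to -0.46, edgeR adjusted p = 0.345). For ADH6 it was -1.14 (95% interval -1.82 to -0.46, edgeR adjusted p = 0.345). Both intervals take a normal approximation from the SE and are too narrow with 2 rabbits per group. SULT1C2 was at 41.9 and 20.9 against 140 and 54.3 CPM (-1.47, adjusted p = 0.429). EPHX1 was at 158 and 143 against 115 and 91.0 CPM (0.68, adjusted p = 0.407).

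Levels also varied among the fibroblast-like clusters. Cluster 6, whose leading genes include FMO2 and ADH6, held 1058 CPM of ADH6 and 599 CPM of FMO2. Cluster 3, led by WIF1, HHIP and PTPRQ, held 8.18 and 101 CPM. It had 187, 310, 260 and 1021 cells in Injury_1, Injury_2, Normal_1 and Normal_2, most of them from Normal_2. In cluster 1, ADH6 was at 182, 112, 1071 and 593 CPM and FMO2 at 129, 184, 592 and 536 CPM. In clusters 1, 5 and 6 both injured libraries were below both normal ones for both genes, and in clusters 2 and 3 they were not. ALDH1A2 averaged 29.0 CPM in cluster 3 and 28.3 CPM in cluster 2, against 6.50 to 11.7 CPM in clusters 1, 5 and 6. In cluster 3 it was at 48.0, 48.8, 9.57 and 9.62 CPM in Injury_1, Injury_2, Normal_1 and Normal_2. Its injured libraries were both above the normal ones in clusters 2 and 3 and both below in clusters 1, 5 and 6.

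Endothelial-like clusters differed in ADH6 as well. Cluster 4, led by SELP and SELE, selectins that bind leukocytes, held 851 CPM, cluster 0 held 121 CPM and cluster 11 held 10.5 CPM. CYP1B1 was at 292 CPM in cluster 0 and 121 CPM in cluster 11.

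**Figure D5:**
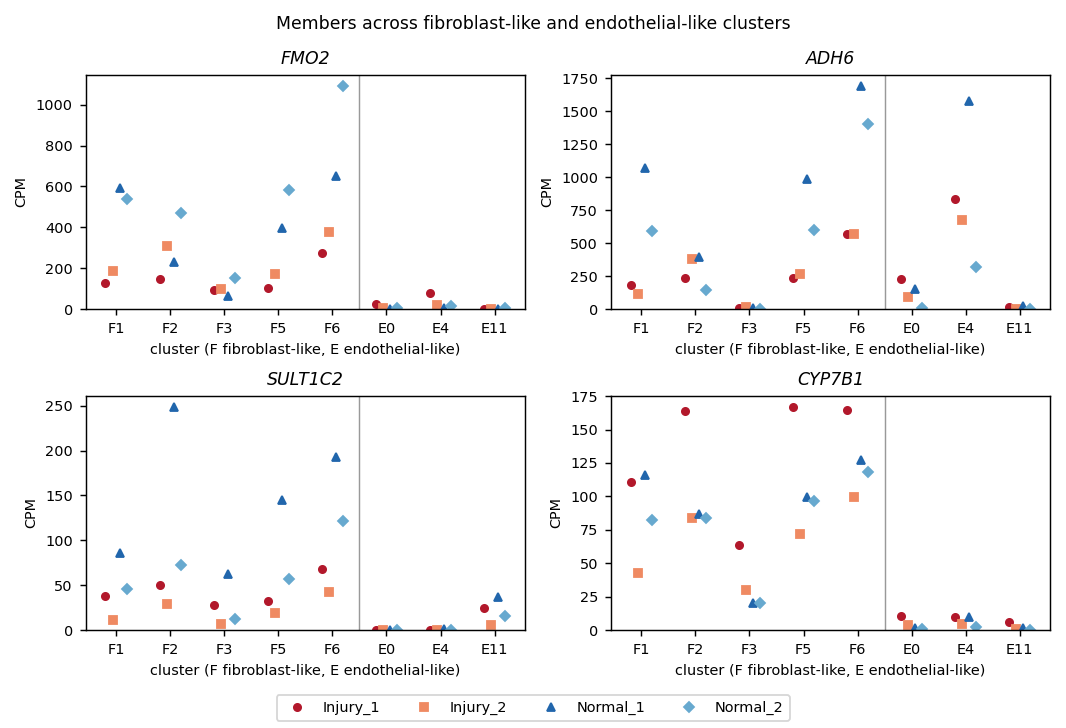
CPM of FMO2, ADH6, SULT1C2 and CYP7B1 in fibroblast-like (F) and endothelial-like (E) clusters, 1 point per library. ADH6 is highest in fibroblast-like cluster 6 and endothelial-like cluster 4 and near 0 in fibroblast-like cluster 3 and endothelial-like cluster 11.

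In endothelial-like cells none of 36 members was called by edgeR, against 0.0% of all genes. At an unadjusted p under 0.05, 4 members (11.1%) and 523 genes (6.98%) passed, and DESeq2 called 0 members and 52 genes. The injured libraries were both above for 7 members and both below for 7 (19.4% each, against 24.4% and 12.7% of all genes). GSTO1 was at 152 and 123 against 250 and 210 CPM (log2 fold change -0.83, SE 0.22). FMO2 was at 45.9 and 10.2 against 2.92 and 7.85 CPM (2.24, SE 0.83), and this value rested on Injury_1, without which it was 0.78. GSTM2 (-0.60) and AKR1B1 (0.46) also had groups that did not overlap, as did CYP1B1, lower in injury at the values given above. The AKR1B1 value was near 0 without Injury_1 (-0.0248).

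In smooth muscle and pericyte-like cells none of 31 members was called by edgeR, against 0.0% of all genes. At an unadjusted p under 0.05, 5 members (16.1%) and 634 genes (9.61%) passed, and DESeq2 called 1 member, CYP1B1, and 76 genes in all. CYP1B1 was at 143 and 150 CPM in the injured and 33.4 and 46.7 CPM in the normal libraries (log2 fold change 1.87, SE 0.27, edgeR adjusted p = 0.169). The groups did not overlap. Within cluster 7 of this class the log2 fold change was 1.80 (edgeR adjusted p = 0.0612) and within cluster 12 it was 0.59 (adjusted p = 0.874). CYP2R1 (1.45), ADH6 (-1.06) and GSTM2 (-0.59) also had groups that did not overlap. Members with both injured libraries above numbered 7 (22.6%, against 20.1% of all genes) and below 6 (19.4%, against 21.1%).

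In macrophage-like cells none of 29 members was called by edgeR, against 0.0% of all genes. At an unadjusted p under 0.05, 6 members (20.7%) and 715 genes (12.6%) passed, and DESeq2 called 0 members and 49 genes. AKR1A1 was at 214 and 198 against 138 and 125 CPM (log2 fold change 0.58). In cluster 8 it was at 223 and 211 against 190 and 155 CPM (0.25). In cluster 14 it was at 183 and 173 against 96.7 and 86.3 CPM. Cluster 14 scored nearly alike for macrophage (-2.943) and T cell markers (-2.97), and its cells stayed unnamed in other clusterings. GSTO1 was at 157 and 175 against 84.6 and 114 CPM (0.66), and GSTM2 at 39.1 and 14.2 against 64.8 and 58.0 CPM (-1.29). FMO2 was at 6.14 and 3.90 against 10.6 and 36.4 CPM (-2.33, and -1.05 without Normal_2). Fibroblast markers in the same cells summed to 3886, 2705, 1294 and 6350 CPM, highest in Normal_2 as FMO2 was, and their part in the FMO2 value was not tested. The injured libraries were both above for 8 members (27.6%, against 28.2% of all genes) and both below for 6 (20.7%, against 16.2%).

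T cell-like cells gave 18 testable members, none called by edgeR, against 0.0879% of all genes. At an unadjusted p under 0.05, 3 members (16.7%) and 652 genes (14.3%) passed, and DESeq2 called 0 members and 63 genes. AKR1A1 was at 173 and 171 CPM in the injured and 83.7 and 76.7 CPM in the normal libraries (log2 fold change 0.93, SE 0.23, edgeR adjusted p = 0.173). The groups drew on different T cell-like clusters, with 103, 70, 3 and 5 cells of Injury_1, Injury_2, Normal_1 and Normal_2 in cluster 18 and 70, 24, 2 and 3 in cluster 26. AKR1A1 was at 310 and 383 CPM in the injured libraries of cluster 26. In cluster 10, which held most normal T cell-like cells, it was at 105 and 57.8 against 84.2 and 78.0 CPM, with overlapping groups and a log2 fold change of -0.0022 (SE 0.35). ALDH5A1 was at 16.5 and 25.8 against 8.37 and 3.93 CPM (1.65), ADH6 at 10.1 and 1.17 against 19.5 and 23.6 CPM (-1.97), and GSTM2 had a log2 fold change of -0.74. Fibroblast markers in the same cells summed to 1223, 1014, 151 and 2555 CPM in Injury_1, Injury_2, Normal_1 and Normal_2. They were highest in Normal_2, as ADH6 was, but lowest in Normal_1, and their part in the ADH6 value was not tested. The injured libraries were both above for 7 members (38.9%, against 35.4% of all genes) and both below for 5 (27.8%, against 14.1%).

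GSTM2 had both injured libraries below both normal ones in 6 of 6 classes tested, with edgeR log2 fold changes of -0.94 in epithelial-like, -0.72 in fibroblast-like, -0.60 in endothelial-like, -0.59 in smooth muscle and pericyte-like, -1.29 in macrophage-like and -0.74 in T cell-like cells. No one of these passed the test. The classes come from the same 4 rabbits and are not independent. GSTM2 was chosen for this count after its values were seen. Class by class, 12.7% (endothelial-like) to 28.3% (fibroblast-like) of all genes had both injured libraries below both normal ones. The share of all genes below in all 6 classes is not given here.

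Whether the injury effect differed between classes was tested for pairs of the 3 largest structural classes, with the library as a term. No member passed for endothelial-like minus fibroblast-like (43 tested, against 0.0228% of all genes), epithelial-like minus fibroblast-like (45 tested, against 1.32%) or epithelial-like minus endothelial-like (44 tested, against 0.355%) by edgeR. At an unadjusted p under 0.05 there were 8, 8 and 9 members, or 18.6%, 17.8% and 20.5% of those tested, against 9.74%, 16.4% and 14.3% of all genes. The lowest adjusted p was that of ALDH2 between epithelial-like and fibroblast-like cells (difference in log2 fold change -1.78, edgeR adjusted p = 0.0578), followed there by CYP51A1 (1.78, adjusted p = 0.0805). Between epithelial-like and endothelial-like cells FMO2 had the lowest (-3.35, edgeR adjusted p = 0.105). The lower ALDH2 of injured epithelial-like cells was thus not shown to differ from the effect in fibroblast-like or endothelial-like cells. The remaining classes were not compared in this way.

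Genes that work beside these enzymes were taken from lists on glutathione and its regulator NRF2, retinoid handling, P450 partners and other drug enzymes, xenosensor receptors, and efflux transporters. The lists were chosen with earlier results of these data known. In epithelial-like cells 3 of 17 tested glutathione and NRF2 genes were called by edgeR, all lower in injury. Among all 7046 genes tested there, 1.66% were called and 1.04% were called lower. The 3 genes were SLC7A11, the cystine carrier, TXNRD1, thioredoxin reductase, and HMOX1, heme oxygenase. TXNRD1 was at 366 and 312 against 1870 and 1427 CPM (log2 fold change -2.53, adjusted p = 0.0273). SLC7A11 was at 22.2 and 18.7 against 109 and 108 CPM (-2.66, adjusted p = 0.0273), and HMOX1 at 2.62 and 1.42 against 15.4 and 11.8 CPM (-2.97, adjusted p = 0.0403). The median log2 fold change of the 17 was -0.61, with 14 negative and 3 positive. NQO1, a member that NRF2 is known to induce, had a log2 fold change of -1.17 with overlapping groups and was not called.

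Of 8 tested retinoid genes, 1 was called, RARRES1, a retinoic acid-responsive gene, at 23.6 and 12.5 against 189 and 142 CPM (log2 fold change -3.45, edgeR adjusted p = 0.0273). Of 16 tested P450 partners and other drug enzymes, 1 was called, DHRS7, a short-chain dehydrogenase, at 213 and 138 against 968 and 714 CPM (-2.51, edgeR adjusted p = 0.0285). None of 5 xenosensor receptors and none of 4 efflux transporters was called there, where 1.66% of all genes were called. The median log2 fold changes of these 4 lists lay between -0.25 and -0.02. In the other 5 classes no gene of these lists was called by edgeR, against 0.0% to 0.0879% of all genes.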

How the data were processed

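Single-cell 10x libraries were deposited by the authors as UMI count matrices, 1 per rabbit, made with Cell Ranger 6.0.1 per the file headers and the submitters' notes, with no normalization. The genome build was not given in the sources used here, so no coordinates or sequences are printed. A barcode was kept if it held 500 or more UMIs from 200 or more genes and its 13 mitochondrial genes took no more than 15%. Doublets were scored with Scrublet in scanpy 1.11.5 and not removed, but 2 clusters in which most cells scored high stayed unnamed. Seurat 5.3.0 integrated the libraries on 1977 variable genes without the members (30 components, resolution 0.8). Clusters were named from marker lists, with the scoring set after the clusters were seen. Members, lists and tests were chosen with earlier results of these data known.

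Counts were summed per class and library and tested with edgeR 4.0.16 (filterByExpr, TMM, quasi-likelihood, injury against normal, no replicate block) in classes with at least 50 cells per library, with Benjamini-Hochberg adjustment over all genes of the class and a threshold of 0.05. Differences between classes had library terms. DESeq2 1.42.0, no filter on low counts, a mitochondrial limit of 10%, removal of the 5% highest doublet scores, other clusterings, a replicate block and leaving out each library were alternatives. Named members were those called, the 3 most abundant per tested class, those with the largest changes of at least 20 CPM without overlap, those 5-fold above the next class, and a preset list. GSTM2 across classes was chosen after its values were seen. Counts cover all members, but the values of 1 member are not reported here. Statistics were tested on simulated data.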

Additional observations from a re-analysis of the deposited data

How the results depend on the processing

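Depth and sample number limit these results, with 2 rabbits per group, the shallow library Normal_1 and 171 epithelial-like cells in Normal_2. In epithelial-like cells ALDH2 was called under 10 of 14 alternatives (log2 fold change -2.51 to -1.98). Each count of members called is followed by the share of members tested and of all genes called under the same setting. The 2 members called in epithelial-like cells (5.56% against 1.66%) became 4 in sub-clusters 0 to 4 alone (11.8% against 3.27%) and 6 in sub-cluster 0 alone (22.2% against 7.26%), both chosen after seeing the data, 11 with no filter on low counts (20.4% against 8.02%) and 5 with DESeq2 (9.26% against 4.02%). With no filter there were 2 in fibroblast-like (3.39% against 3.94%), 4 in macrophage-like (8.0% against 3.09%), 4 in smooth muscle and pericyte-like (7.84% against 2.26%) and 5 in T cell-like cells (11.1% against 3.52%). The differences then gave 3 for endothelial-like minus fibroblast-like (5.08% against 2.05%), 8 for epithelial-like minus fibroblast-like (13.6% against 4.65%) and 8 for epithelial-like minus endothelial-like (14.04% against 3.62%). DESeq2 called 1 of 51 members in smooth muscle and pericyte-like cells (against 0.643% of all genes). Epithelial-like minus fibroblast-like gave 2 with the 10% mitochondrial limit (4.55% against 1.84%) and 3 without the 5% highest doublet scores (6.67% against 2.83%), where epithelial-like minus endothelial-like gave 1 (2.33% against 1.28%).

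With 1 library left out, the counts ran from 1 to 6 in epithelial-like (at most 14.3% against 6.31%), 0 to 4 in macrophage-like (11.8% against 5.95%) and 0 to 6 in smooth muscle and pericyte-like cells (18.2% against 10.9%), each highest without Normal_2. They ran from 0 to 4 in T cell-like cells (15.4% against 4.20%), and for the differences in the order above from 0 to 6 (13.3% against 3.81%), 0 to 10 (20.4% against 8.92%) and 0 to 8 (17.4% against 6.99%), each highest without Normal_1. GSTA5 in epithelial-like cells changed sign around 0 (-0.0038 without the highest doublet scores, -0.28 with the 10% limit, -0.22 to 0.41 with 1 library left out), as did AKR1B1 in endothelial-like cells (-0.0248 to 0.84 with 1 library left out, lowest without Injury_1). The causes were not tested.

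The replicate numbers were tried as a block, though nothing in the labels pairs rabbits. Samples of the same number deviated together with correlations of 0.151 in endothelial-like, 0.111 in epithelial-like, 0.235 in fibroblast-like, -0.095 in macrophage-like, 0.069 in smooth muscle and pericyte-like and 0.061 in T cell-like cells. With the replicate block, epithelial-like cells called 1 member (2.78% against 0.823% of all genes) in place of 2, as ALDH2 had an adjusted p of 0.0651, and fibroblast-like (1 of 40, against 2.84%) and smooth muscle and pericyte-like cells (3.23% against 0.697%) called 1 each.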
